A study of Rattus norvegicus with 28 samples.

Results

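The genes described here build the channels and the membrane pits through which vascular cells touch each other and their surroundings: 4 connexins (Gja1, Gja4, Gja5, Gjc1), the pannexin Panx1, 3 caveolins (Cav1, Cav2, Cav3) and the cavins Cavin1 and Cavin2. They were chosen by name, and a gene was taken as measured where a probe set of the array carried its symbol and no other. Of the 10 genes, 9 had such a probe set. Cav2 had 2 with identical values, which were counted once, so that the genes held 10 of the 29214 probe sets. Gjc1 was not analysed here. All 9 measured genes had a mean level of at least 4, the minimum set for testing.

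Gene expression had been measured in the aortic arch of untreated male Wistar rats, whose age is not given in the sources used here. The low WSS (wall shear stress) pools came from the distal lesser curvature, where flow is disturbed, and the high WSS pools from the greater curvature just past the left subclavian artery, where flow is uniform. Each pool joined the entire wall of 5 animals, and 70 animals gave 14 low WSS and 14 high WSS pools, numbered 1 to 14 in each region and taken as 14 pairs. Each pool had 1 array. Because the wall was not separated into layers, a level is a sum over endothelium, media and adventitia, and region and WSS cannot be told apart.

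Connexins assemble into hemichannels that dock between neighbouring cells as gap junctions, and pass ions and small signalling molecules. Panx1 forms channels in a single membrane that release ATP. Caveolae are flask-shaped pits of the plasma membrane, made of caveolins coated by cavins, and are abundant in endothelium, smooth muscle and fat cells, where they flatten under tension and hold signalling proteins.

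In low WSS pools Gja1 rose, Gja4 and Cavin2 fell, and the other 6 measured genes did not pass the test. The test was limma with the pair as a block, at a Benjamini-Hochberg adjusted p under 0.05 over 13383 probe sets, and every difference below is low minus high WSS on the log2 scale. That made 3 of 9 genes, or 33.3%, where 41.7% of all 11750 genes tested were called. By direction, 1 of the 9 was higher and 2 were lower in low WSS, where 19.7% and 22.0% of all genes were. The median difference of the 9 genes was -0.01, and that of all genes tested was -0.005. The number of genes called was thus no higher than among genes at large, and what follows is about which genes they were.

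**Figure D1:**
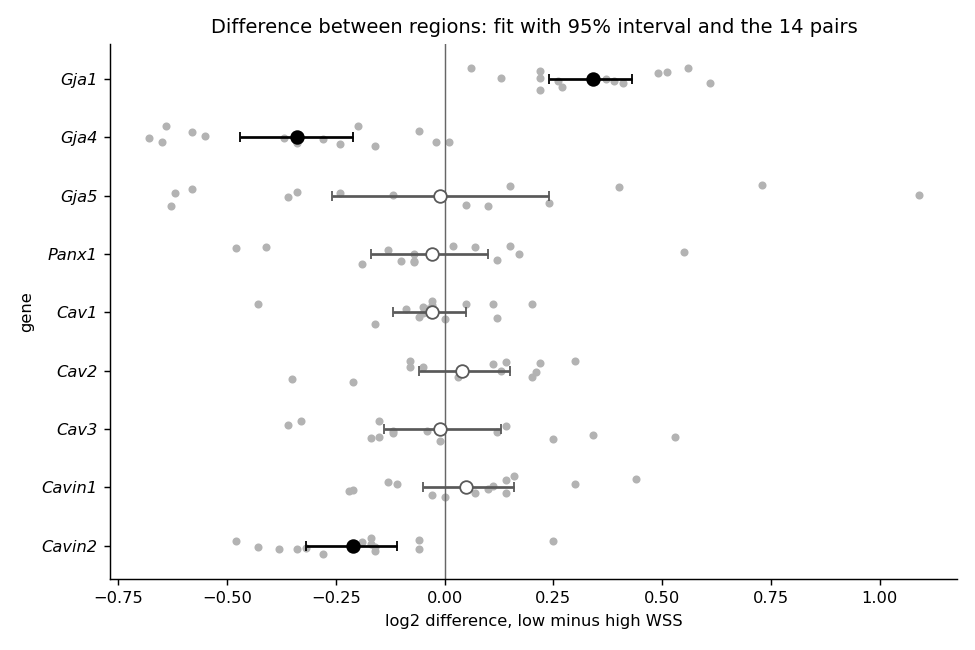
Log2 difference of each of the 9 genes, low minus high WSS, on the horizontal axis. Large points are the fitted differences with 95% intervals (black and filled where the adjusted p was under 0.05), and small grey points the 14 pairs. Gja1 lies to the right of 0 in all 14 pairs, Gja4 and Cavin2 lie to the left in 13 of 14.

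The promoters of the 3 genes that were called are printed to show what sequence lies before genes that moved in opposite directions. Each run holds the 250 bases before the RefSeq transcription start in the rat assembly GRCr8, read along the gene's own strand, with every match to a searched motif in capitals.
Gja1, chr20:36302314-36302563, plus strand: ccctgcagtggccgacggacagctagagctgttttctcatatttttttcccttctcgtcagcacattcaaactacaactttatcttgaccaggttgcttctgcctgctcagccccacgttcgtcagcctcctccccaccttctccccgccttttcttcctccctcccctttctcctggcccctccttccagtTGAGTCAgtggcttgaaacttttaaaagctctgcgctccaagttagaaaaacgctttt
Gja4, chr5:144920325-144920574, minus strand: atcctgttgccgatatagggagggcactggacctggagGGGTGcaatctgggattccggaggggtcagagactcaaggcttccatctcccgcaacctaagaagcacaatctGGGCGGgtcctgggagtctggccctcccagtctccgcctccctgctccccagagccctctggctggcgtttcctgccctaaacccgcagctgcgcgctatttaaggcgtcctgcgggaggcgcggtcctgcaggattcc
Cavin2, chr9:57806025-57806274, minus strand: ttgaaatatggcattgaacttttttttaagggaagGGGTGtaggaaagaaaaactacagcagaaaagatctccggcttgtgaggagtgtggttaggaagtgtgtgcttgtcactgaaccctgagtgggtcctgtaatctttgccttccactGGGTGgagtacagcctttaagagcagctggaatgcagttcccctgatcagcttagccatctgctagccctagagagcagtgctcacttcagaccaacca

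The motifs were searched on both strands: the AP-1 element TGANTCA, the core of Kruppel-like factor (KLF) elements CACCC, the GC box GGGCGG, the shear stress response element GAGACC, the TATA box TATAAA and the CArG box. The Gja1 run held TGAGTCA, an AP-1 element, 58 to 52 bases before the start, and none of the other motifs. The Gja4 run held GGGTG, the KLF core read on the other strand, 212 to 208 bases before the start, and a GC box 139 to 134 bases before it. The Cavin2 run held the KLF core at 215 to 211 and at 99 to 95 bases before the start, each on the other strand. In all 33469 promoters of the same length, the AP-1 element was in 6.34%, the KLF core in 49.2%, the GC box in 30.5%, the shear stress response element in 13.7%, the TATA box in 12.9% and the CArG box in 1.5%.

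Among the 10 promoters of the 9 genes (Cav1 has 2 start sites), the AP-1 element also stood before Cav2, which was not called. The KLF core was in 7 promoters and the GC box in 6, called and uncalled genes alike, and in the Gja5 promoter these motifs share a base. The shear stress response element was in 2, those of Cav3 and Cavin1, and the CArG box in 0. A match does not show that a factor binds there.

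**Figure D2:**
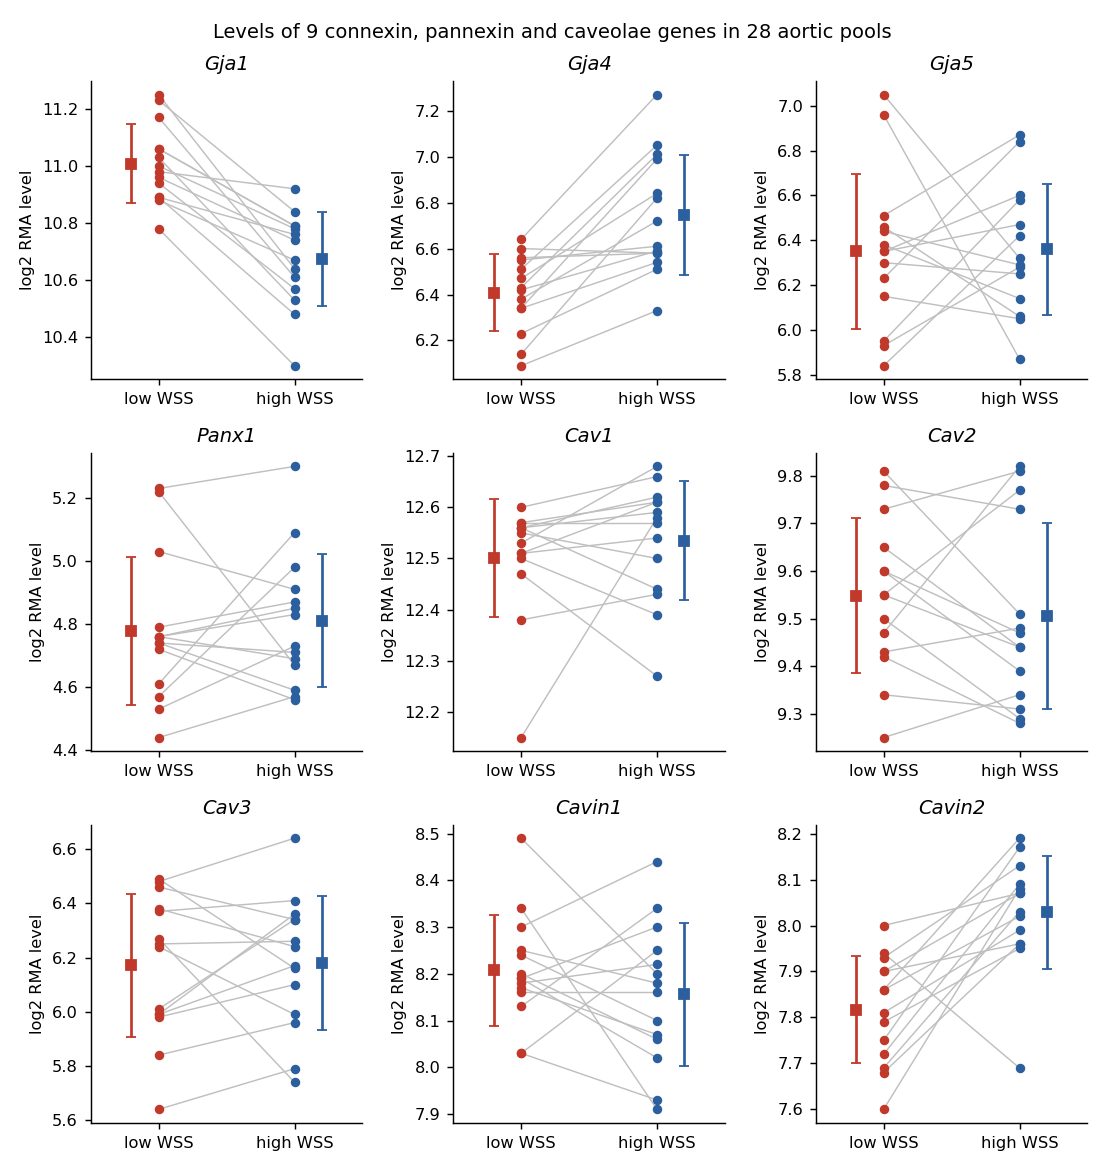
Log2 RMA level of each of the 9 genes (vertical axis, own scale per gene) in the 14 low WSS pools (red) and the 14 high WSS pools (blue), with pairs joined by grey lines. Squares and bars are the mean and SD. The lines of Gja1 all run downward to high WSS, while those of Gja4 and Cavin2 run upward in 13 of 14 pairs.

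Gja1 encodes Cx43, the connexin of smooth muscle gap junctions, which endothelium also makes. Its level, on the log2 scale of the array, ran from 10.78 to 11.25 with a median of 10.99 in low WSS pools, and from 10.30 to 10.92 with a median of 10.70 in high WSS pools. Of the 14 low WSS pools, 10 were above the highest high WSS pool, and all 14 pairs had the higher level in low WSS. A gene with the same direction in all 14 pairs was met in 9.22% of all genes tested.

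The mean of Gja1 was 11.01 ± 0.14 in low WSS and 10.67 ± 0.17 in high WSS (SD, n = 14 each), and the difference was 0.34 with an SE of 0.05, or 1.26-fold (95% interval 1.18 to 1.35, limma adjusted p = 1.72e-05). The pair differences ran from 0.06 in pair 2 to 0.61 in pair 5. Gja1 was the only one of the 9 to pass the stricter Bonferroni threshold, with p = 0.0124 after correction, which 6.91% of all genes did (3.01% higher and 3.9% lower). It missed that threshold, with the adjusted p still under 0.05, in fits that added the levels of the smooth muscle genes Tagln and Cnn1 (Bonferroni p = 0.237), the mean of cardiac and skeletal muscle markers (0.542) or a further quantile normalization (1.00). In whole wall, more cells of a type and more RNA per cell cannot be told apart for this or any gene below.

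Gja4 encodes Cx37, a connexin of arterial endothelium. It ran from 6.09 to 6.64 with a median of 6.43 in low WSS pools, and from 6.33 to 7.27 with a median of 6.67 in high WSS pools. The regions overlapped, although 7 high WSS pools exceeded the highest low WSS pool and 3 low WSS pools lay under the lowest high WSS pool. The mean was 6.41 ± 0.17 in low WSS and 6.75 ± 0.26 in high WSS (SD, n = 14 each), and the difference was -0.34 with an SE of 0.06, or 0.79-fold (95% interval 0.72 to 0.87, limma adjusted p = 0.000292).

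Gja4 was lower in low WSS in 13 of 14 pairs, and pair 8 differed by 0.01. The pairs did not share 1 size of fall. Pairs 9, 11, 12, 13 and 14 fell by 0.68, 0.64, 0.58, 0.55 and 0.65, while no other pair fell by more than 0.37. In pairs 11 to 14 it was the high WSS pools that stood out, at 7.27, 7.01, 7.05 and 6.99, where the other high WSS pools reached at most 6.84. The low WSS pools of these pairs were at 6.64, 6.43, 6.51 and 6.34, where the other low WSS pools reached at most 6.60. Which pools were extracted or hybridised together is not given in the sources used here.

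Gja5 encodes Cx40, the connexin that arterial endothelium makes together with Cx37. It ran from 5.84 to 7.05 with a median of 6.35 in low WSS pools, and from 5.87 to 6.87 with a median of 6.31 in high WSS pools, so that the regions covered nearly the same range. The difference was -0.01 with an SE of 0.12 and a 95% interval of -0.26 to 0.24 (limma adjusted p = 0.955), and 7 pairs went each way. This was the widest interval of the 9 genes.

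Behind the Gja5 mean were pairs that went far in opposite directions. In pairs 1, 2 and 3 it was higher in low WSS by 0.24, 0.73 and 1.09, and in pairs 5, 6 and 9 it was lower by 0.62, 0.58 and 0.63. The same first 3 pairs had endothelial markers higher in low WSS by 0.82, 0.87 and 0.82 and fat cell markers by 2.00, 3.62 and 2.87, as means of their marker lists. Fat cell markers were also higher by 3.15 in pair 7 and 1.52 in pair 9, where Gja5 differed by -0.24 and -0.63, and Gja5 was higher by 0.40 in pair 14, where both lists were lower in low WSS. Over pairs 4 to 14 alone, the Gja5 difference was -0.20 with an SE of 0.09 (limma adjusted p = 0.0893). That subset leaves out the first 3 pairs, in all of which Gja5 was higher, so a lower mean follows from the choice.

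The connexins thus had 1 gene that rose, 1 that fell and 1 with no call. Whether their differences were themselves distinct was tested with an exact two-sided sign-flip test over the 14 pairs of pools. The test was run on all 36 combinations of the 9 genes, with Benjamini-Hochberg adjustment over the 36, and was chosen after the data had been seen. The difference of Gja1 exceeded that of Gja4 by 0.68 with an SE of 0.08, in 14 of 14 pairs (exact p = 0.000122, the smallest these flips can give, adjusted p = 0.0022). Gja5 was set apart from neither by the exact test, with Gja1 above it by 0.35 with an SE of 0.15 (adjusted p = 0.0896) and Gja4 below it by 0.33 with an SE of 0.14 (adjusted p = 0.069).

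Panx1, the ATP-releasing channel, lay close to the minimum level for testing. It ran from 4.44 to 5.23 with a median of 4.75 in low WSS pools, and from 4.56 to 5.30 with a median of 4.78 in high WSS pools. The difference was -0.03 with an SE of 0.06 and a 95% interval of -0.17 to 0.10 (limma adjusted p = 0.716), with 6 pairs higher and 8 lower. Pair 1 was higher in low WSS by 0.55, and pairs 6 and 10 were lower by 0.48 and 0.41. The difference of Panx1 lay below that of Gja1 and above that of Gja4 in the exact test (adjusted p = 0.00439 and 0.00952).

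Cav1 encodes the caveolin without which caveolae do not form outside striated muscle. Its level ran from 12.15 to 12.60 with a median of 12.54 in low WSS pools, and from 12.27 to 12.68 with a median of 12.57 in high WSS pools. The pools of both regions lay within a narrow band, apart from the low WSS pool of pair 3, at 12.15, and that pair differed by -0.43. The difference was -0.03 with an SE of 0.04 and a 95% interval of -0.12 to 0.05 (limma adjusted p = 0.543), the narrowest interval of the 9 genes.

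Cav2, the partner that joins Cav1 in the same coat, ran from 9.25 to 9.81 with a median of 9.55 in low WSS pools, and from 9.28 to 9.82 with a median of 9.45 in high WSS pools. The difference was 0.04 with an SE of 0.05 and a 95% interval of -0.06 to 0.15 (limma adjusted p = 0.509), with 9 pairs higher and 5 lower. Cav1 and Cav2 lie on the same strand of chromosome 4, and over the 28 pools, after the mean of each region was subtracted, their levels had a correlation of -0.35, which was -0.02 in pairs 4 to 14.

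Cav3 is the caveolin of striated muscle and some smooth muscle. It ran from 5.64 to 6.49 with a median of 6.24 in low WSS pools, and from 5.74 to 6.64 with a median of 6.20 in high WSS pools. The difference was -0.01 with an SE of 0.06 and a 95% interval of -0.14 to 0.13 (limma adjusted p = 0.957). The pairs, of which 5 were higher and 9 lower, ran from -0.36 to 0.53, a wider spread than that of Cav1 or Cav2.

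Cavin1, the cavin that all caveolae need, ran from 8.03 to 8.49 with a median of 8.19 in low WSS pools, and from 7.91 to 8.44 with a median of 8.17 in high WSS pools. The difference was 0.05 with an SE of 0.05 and a 95% interval of -0.05 to 0.16 (limma adjusted p = 0.431), with 9 pairs higher and 5 lower, and the regions overlapped over most of their range.

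Cavin2, another cavin of the coat that helps to bend the membrane, was the one caveolae gene of the set to be called. It ran from 7.60 to 8.00 with a median of 7.84 in low WSS pools, and from 7.69 to 8.19 with a median of 8.05 in high WSS pools. Of the 14 high WSS pools, 9 were above the highest low WSS pool, and the high WSS pool of pair 3, at 7.69, was far below the rest, of which the next was at 7.95. The mean was 7.82 ± 0.12 in low WSS and 8.03 ± 0.12 in high WSS (SD, n = 14 each).

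The Cavin2 difference was -0.21 with an SE of 0.05, or 0.86-fold (95% interval 0.80 to 0.93, limma adjusted p = 0.00251). It was lower in low WSS in 13 of 14 pairs, by up to 0.48 in pair 11, and higher by 0.25 in pair 3. Over pairs 4 to 14 alone the difference was -0.27 with an SE of 0.04 (limma adjusted p = 0.000227). That subset leaves out pair 3, the only pair in which Cavin2 was higher, so a larger fall follows in part from the choice. Cavin2 did not pass the Bonferroni threshold, and nor did Gja4 (Bonferroni p = 0.49).

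Within the caveolar coat, the exact test set Cavin2 apart from Cavin1 and Cav2 but not from Cav1 or Cav3. The difference of Cavin1 exceeded that of Cavin2 by 0.26 with an SE of 0.05 (exact sign-flip test, adjusted p = 0.00439), and that of Cav2 exceeded it by 0.25 with an SE of 0.05 (adjusted p = 0.00439). For Cav1 the margin was 0.18 with an SE of 0.07, in 13 of 14 pairs (exact test, adjusted p = 0.069), and for Cav3 it was 0.21 with an SE of 0.10 (adjusted p = 0.105). Cavin2 and Gja4, the 2 genes that fell, differed by 0.13 with an SE of 0.07 (exact test, adjusted p = 0.156). Of the 36 comparisons, 14 were called, and each of them involved Gja1, Gja4 or Cavin2.

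**Figure D3:**
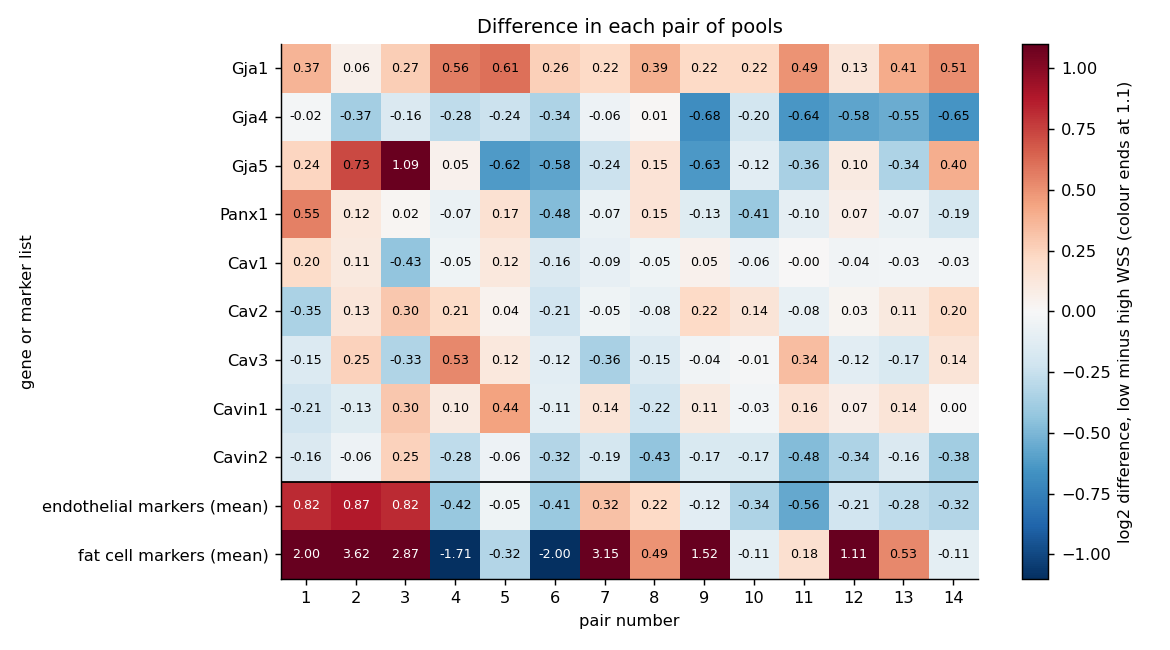
Log2 difference, low minus high WSS, of each gene (rows) in each of the 14 pairs (columns), printed in the cells and coloured red where higher in low WSS and blue where lower, with the colour ending at 1.1. The bottom rows give the mean over endothelial and over fat cell markers. The endothelial mean is highest in pairs 1, 2 and 3, where Gja5 is also higher, while the fat cell mean is also high in pairs 7 and 9, where Gja5 is lower.

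Further genes of the same systems were taken from lists of related genes, whose counts are given beside the 41.7% of all genes that were called. Of 18 other connexins and pannexins, 12 had a probe set, and 11 of these were under the minimum, with mean levels of 2.82 to 3.89. The one tested, Gja6, differed by 0.14 with an SE of 0.07 (limma adjusted p = 0.146), and it was called higher in pairs 4 to 14 alone.

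The list of other caveolar coat and neck proteins, which also holds the flotillins of other membrane microdomains, had 10 genes tested, with 1 higher and 3 lower in low WSS. The gene that was higher was the flotillin Flot2, which averaged 9.32 ± 0.17 in low WSS and 8.99 ± 0.20 in high WSS and rose by 0.33 with an SE of 0.04 (limma adjusted p = 7.13e-06). Ehd3, an ATPase of membrane traffic, averaged 7.20 ± 0.54 in low WSS and 7.79 ± 0.28 in high WSS and fell in all 14 pairs, by 0.59 with an SE of 0.11 (limma adjusted p = 0.000243). Dnm2, the dynamin that cuts vesicle necks, fell by 0.31 (limma adjusted p = 7.4e-05), and Ehd2, the ATPase at the caveolar neck, fell by 0.11 (adjusted p = 0.0196). Cavin3, a cavin that is not among the 10 genes, averaged 11.06 ± 0.09 in low WSS and 11.10 ± 0.13 in high WSS (difference -0.05, limma adjusted p = 0.424).

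Of 12 proteins that bind connexins or govern their turnover, 4 were higher and 2 lower, where 19.7% and 22.0% of all genes were. Ezr, a linker of membrane to actin, rose by 0.37 with an SE of 0.05 in all 14 pairs (limma adjusted p = 9.06e-06). The ubiquitin ligase Nedd4 rose by 0.18, the adherens junction protein Ctnnb1 by 0.22 and the endosomal sorting protein Tsg101 by 0.16 (limma adjusted p = 0.000377, 0.00099 and 0.00264). The tyrosine kinase Src, which phosphorylates Cx43, fell by 0.30 in all 14 pairs, and Ubqln4 fell by 0.25 (limma adjusted p = 4.59e-05 and 0.000576). Tjp1, the scaffold that Cx43 binds at the junction edge, differed by 0.08 with an SE of 0.04 (limma adjusted p = 0.0813).

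Of 11 receptors and enzymes of extracellular ATP, 2 were higher and 2 lower, no larger a share than the 41.7% of all genes. The receptor P2ry2 rose by 0.28 and Nt5e, which makes adenosine, by 0.16 (limma adjusted p = 0.00068 and 0.036). The receptor P2ry6 fell by 0.30 and the phosphodiesterase Enpp1 by 0.24 (limma adjusted p = 0.000217 and 0.000849). In pairs 4 to 14 alone the count was 1 higher and 4 lower, where 2558 of all 13383 probe sets were higher and 3041 lower.

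Of 10 receptors, channels and enzymes held at caveolae, 2 were higher and 3 lower, again near the 41.7% of all genes, and 1 was higher in pairs 4 to 14 alone or with no block by pair. The glucose transporter Slc2a4 rose by 0.24 and the angiotensin receptor Agtr1a by 0.17 (limma adjusted p = 0.00266 and 0.0195). The insulin receptor Insr fell by 0.20, the BMP receptor Bmpr2 by 0.15 and the potassium channel Kcnma1 by 0.12 (limma adjusted p = 0.000445, 0.00567 and 0.0379). Nos3, the endothelial nitric oxide synthase that Cav1 binds, averaged 6.16 ± 0.35 in low WSS and 6.39 ± 0.21 in high WSS, with a difference of -0.23 and an SE of 0.11 (limma adjusted p = 0.108).

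**Figure D4:**
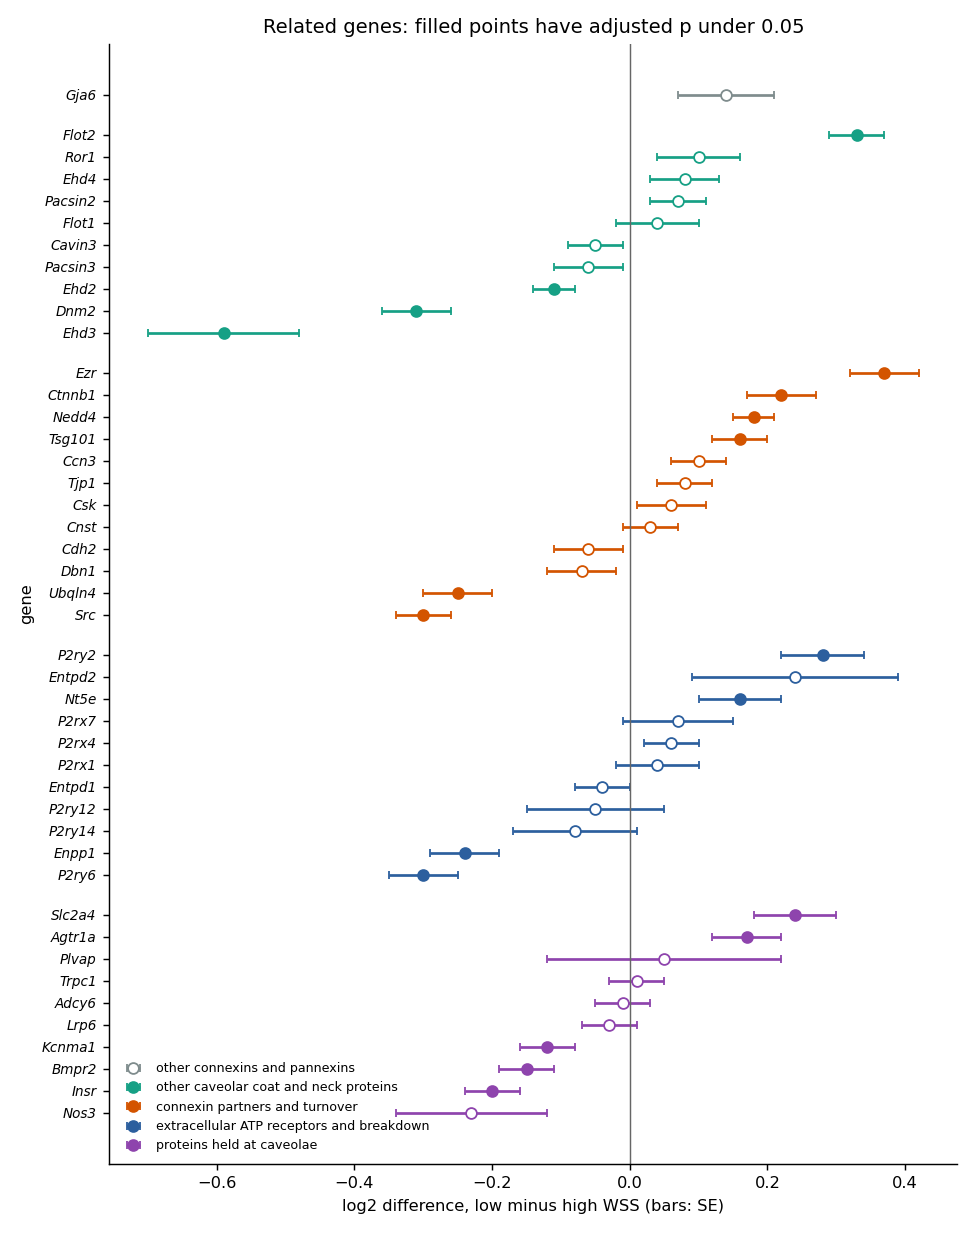
Log2 difference, low minus high WSS, of each tested gene of the related lists (horizontal axis, bars SE), coloured by list and filled where the adjusted p was under 0.05. Each list except that of other connexins and pannexins holds filled points on both sides of 0, with Ezr at 0.37 and Ehd3 at -0.59 at the ends.

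Marker lists showed what else the pools held. The smooth muscle genes Tagln, Myh11 and Cnn1 averaged 12.47, 12.23 and 11.81 in low WSS and 12.41, 12.19 and 11.81 in high WSS. Of 11 smooth muscle markers, 1 rose (Actg2, by 0.13) and 5 fell, among them Myocd by 0.37 and Lmod1 by 0.25, where 41.7% of all genes were called. With no block by pair 0 were higher and 3 lower, with quantile normalization repeated 0 were higher, and in pairs 4 to 14 alone 2 were higher. Of 11 endothelial markers 0 were called by limma or by the methods' paired test, and in limma 0 had an unadjusted p under 0.05. The mean of the endothelial list ran from 6.31 to 7.18 in low WSS pools and from 6.19 to 7.27 in high WSS pools. In pairs 4 to 14 alone, 4 endothelial markers were lower, in a fit that called 2558 of 13383 probe sets higher and 3041 lower. Left out of that fit are pairs 1 to 3, which had the largest endothelial list differences (0.82, 0.87 and 0.82). Those pairs also had the lowest smooth muscle list differences (-0.28, -0.31 and -0.22). The shifts of both lists in pairs 4 to 14 thus follow in part from the choice.

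The marker counts below stand beside 19.7% of all genes higher and 22.0% lower. The fat cell list had 2 of 11 markers higher, Lpl by 1.22 and Fabp4 by 1.19. Neither was called in pairs 4 to 14 alone or by the methods' paired test. The list mean ran from 5.33 to 9.24 in low WSS pools and from 5.11 to 9.11 in high WSS pools. Of 9 cardiac and skeletal muscle markers, 2 were higher (Ryr2 by 0.21 and Tnnt3 by 0.11) and 3 lower, with Ckm falling by 0.68. Acta1 and Actc1, with mean levels of 8.65 and 7.40, were not called, and Myh7, Tnni3 and Nppa were under the minimum. Fibroblast markers had 3 of 10 higher, among them Col3a1 by 0.23, and 3 lower, among them Dpt by 0.65. Schwann cell and neuron markers had 1 of 5 each way. Myeloid markers had 2 of 11 higher and 0 lower by limma or the methods' paired test. In pairs 4 to 14 alone 1 was higher and 5 lower, where 2558 of 13383 probe sets were higher and 3041 lower. Pairs 1 to 3, left out there, had the largest myeloid list differences of all pairs (0.64, 0.64 and 0.48). The myeloid shift thus follows in part from the choice of pairs. With the endothelial list mean as a covariate, the difference of Gja1 was 0.34, that of Gja4 -0.35 and that of Cavin2 -0.22 (limma adjusted p = 8.06e-06, 5.28e-05 and 0.000495). With the fat cell list mean in its place they were 0.38, -0.36 and -0.26 (limma adjusted p = 6.09e-06, 0.000477 and 0.000708).

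**Figure D5:**
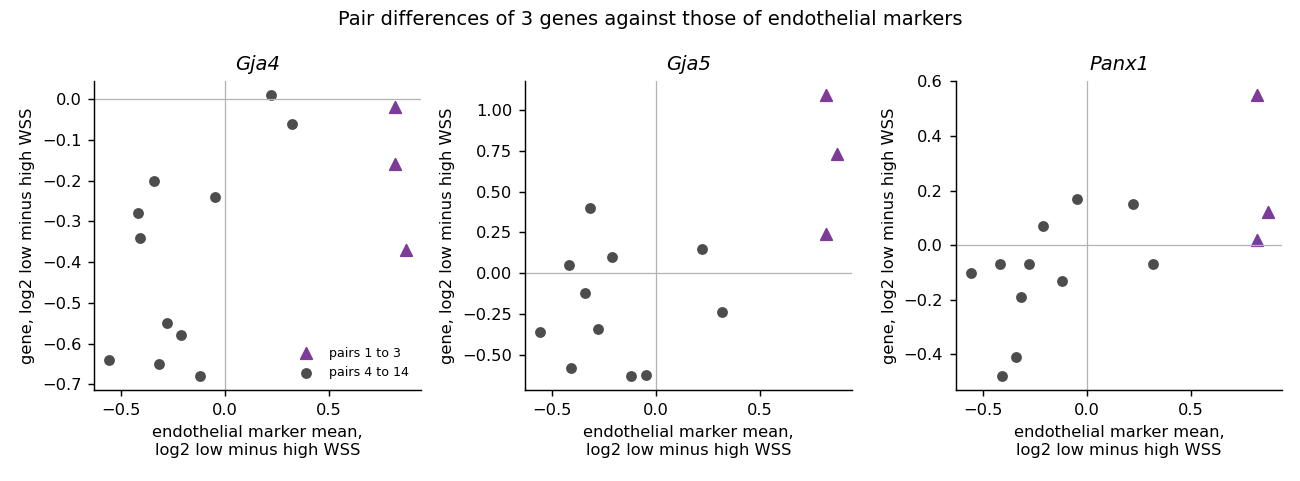
Log2 difference, low minus high WSS, of Gja4, Gja5 and Panx1 (vertical axes) against that of the mean of the endothelial markers (horizontal axis) in 14 pairs. Triangles mark pairs 1 to 3, which lie at the right, and dots pairs 4 to 14. For Gja5 the triangles carry the slope, with r = 0.66 over 14 pairs and 0.04 over pairs 4 to 14.

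Across the 14 pairs, the differences of the 9 genes were set against those of the endothelial and fat cell list means, 18 relations chosen after the data had been seen. None passed the Benjamini-Hochberg adjustment over the 18, the smallest adjusted p of Pearson's r being 0.0717 by permutation. Panx1 and the endothelial list had r = 0.66 and rho = 0.66 (permutation p = 0.00843 and 0.013, adjusted 0.0717 and 0.191), and r was 0.76 without the 2 pairs farthest from the median and 0.50 in pairs 4 to 14. For Gja5, r was 0.66 and rho 0.49 (permutation p = 0.0105 and 0.0831, adjusted 0.0717 and 0.286), but r was 0.29 without the 2 farthest pairs, so that the relation rested on those. For Cavin2, r was 0.64 and rho 0.60 (permutation p = 0.0119 and 0.0249, adjusted 0.0717 and 0.191), and r was 0.35 without the 2 farthest pairs. For Gja4, r was 0.56 and rho 0.46 (permutation p = 0.0399 and 0.10, adjusted 0.144 and 0.286), and r was 0.67 without the 2 farthest pairs. For Gja1 and the fat cell list, r was -0.58 and rho -0.58 (permutation p = 0.0295 and 0.0318, adjusted 0.133 and 0.191). Gja1 was higher in low WSS in all 14 pairs, so this r is about the size of its difference and not its direction. It was -0.39 without the 2 farthest pairs and -0.46 in pairs 4 to 14.

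Within regions, the genes varied from pool to pool in ways that their differences between regions do not show. The following correlations are over the 28 pools after the mean of each region was subtracted. They are descriptions with no test, since paired pools are taken to share animals and all pools share a normalization. Gja1 ran with Cav2 (r = 0.50, and 0.65 in pairs 4 to 14) and against Gja4 (-0.45, and -0.52). Gja4 also ran against Cav2 (-0.49, and -0.51) and against the mean of cardiac and skeletal muscle markers (-0.57, and -0.65). Panx1 ran with the endothelial mean (0.62, and 0.66) and the fibroblast mean (0.55, and 0.55), and against the smooth muscle mean (-0.49, and -0.61). Values near 0 were those of Gja4 with the endothelial mean (0.06, and -0.10) and of Gja1 with the fat cell mean (0.03, and 0.16).

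The partners of the caveolar coat showed how much a few pools can weigh in such values. Cav1 and Cavin1 had r = -0.24 over all pools and 0.75 in pairs 4 to 14. Cavin1 and Cavin2 had 0.31 and 0.50, and Cav2 and Cavin2 had 0.30 and 0.45. Gja5 had r = 0.51 with the endothelial mean over all pools and 0.15 in pairs 4 to 14, while Cav3 had -0.32 and -0.50.

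For each gene, the genes with the most similar pattern over the 28 pools were sought by the same measure among 11749 others. The best of so many is high by selection, and a shared pattern is no more than that. For Gja1 these were Mdh1b and Lmcd1 (r = 0.76 each) and Ahsa2 (0.73), and none of the 3 was called between regions. For Gja4 they were Zfp703 (0.77), which fell by 0.55 in low WSS (limma adjusted p = 2.76e-06), Rps2 (0.75) and A3galt2 (0.73), which was higher in low WSS by 0.30 (adjusted p = 9.48e-05). For Cavin2 they were Rpl37a (0.72), Rps19 (0.71) and Nme2 (0.68).

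Among the genes that were not called, Cav2 had the closest match, St13 (r = 0.86), followed by Raly and Ctnnd1 (0.80 each). Cav1 was nearest to Cdc23 (0.82), RGD1561393 and Supt4h1 (0.80 each), and Cav3 to Prxl2c (0.79), the smooth muscle kinase Prkg1 (0.77) and Tpm1 (0.76). Gja5 was nearest to F5 (0.74), Tmem252 (0.73) and Rph3al (0.72), Panx1 to Lfng (0.76), Dmtn (0.75) and Zfp217 (0.74), and Cavin1 to Nsmf (0.76), Snrpb (0.73) and Camkk2 (0.72). No member of the 10 genes was among the 3 nearest of another.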

How the data were processed

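Rat aortic wall was measured on Affymetrix Rat Gene 1.1 ST arrays. The deposited values are log2 levels, which the authors made from the scanned arrays with RMA (background correction, quantile normalization, summary per probe set), with annotation on rn4 per the submitters' processing notes. Array medians ran from 4.85 to 4.92 in low WSS pools and from 4.88 to 5.00 in high WSS pools, and r between arrays from 0.9792 to 0.9965.

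Gene names came from the platform annotation. Of 29214 probe sets, 18644 had 1 symbol, 962 several and 9608 none. Only probe sets with a symbol and a mean level of at least 4 were tested, as in the study's methods, which left 13383. Where a gene had several probe sets, the brightest on average stood for it. limma 3.58.1 in R 4.3.3 fitted low minus high WSS with the pair as a block, as the study's methods compare pairs. The methods describe paired pools from the same animals, but the labels give only a region and a replicate number. That pools of the same number form a pair was assumed. The deviations of paired pools from their region means had r of -0.01 to 0.48, over 0.1 in 11 of 14 pairs (not in pairs 1 to 3), with a mean of -0.017 between other pools, and 6 of 14 low WSS pools were closest to the pool of their own number.

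The members and the lists were chosen with earlier results of these data known. All 10 members are named, from each related list up to 4 genes per direction with the smallest p among those called, and per member the 3 most similar genes. For marker lists the plan was to name up to 3 genes with the highest level and 2 called per direction. Not all of these are named here. Tjp1, Nos3, Gja6 and Cavin3 were named after their values were seen. Alternatives were the methods' paired t-test, no block, trended and robust variances, array weights, other filters and probe sets, centring, quantile normalization, covariates, pairs 4 to 14 and leaving out each pair. Pairs 4 to 14 are those whose paired pools had r over 0.1 in these same data. Added after seeing the data were the comparisons between members and the correlations of pair differences, in Python 3.11.15 with scipy 1.17.1. The fit was tested on simulated data in which far fewer probe sets were changed than were called here. Of 50 probe sets changed at each size, limma called 21 at 0.2 log2, 39 at 0.3 and 49 at 0.6. Many differences of 0.2 were thus missed in the simulation. With so few probe sets changed, its adjusted threshold was stricter than that of the fit to the arrays. These counts therefore do not give the share missed here. Promoters came from RefSeq on GRCr8 for 9 of 10 genes. Gjc1 was not analysed here.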

Additional observations from a re-analysis of the deposited data

How the results depend on the processing

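Gja1, Gja4 and Cavin2 kept their direction and call in 29 of 29 alternatives, with differences of 0.24 to 0.38, -0.43 to -0.27 and -0.29 to -0.17 and limma or paired t-test adjusted p of at most 0.000661, 0.0353 and 0.00779. With no replicate block these differences were 0.34, -0.34 and -0.21 (limma adjusted p = 2.78e-05, 0.00122 and 0.000781), and the block changed no call among the 9 genes. Leaving out 1 pair gave 0.32 to 0.36, -0.37 to -0.31 and -0.25 to -0.19, always 1 gene higher and 2 lower, with 2438 to 2948 probe sets higher, 2682 to 3012 lower and 789 to 1052 past Bonferroni (2739, 2905 and 1004 with all pairs). Directions turned only for genes not called. With arrays centred on their medians, which adds 0.038 to every difference, Gja5 was 0.03, Panx1 0.01, Cav1 0.00 and Cav3 0.03, and probe sets split into 3699 higher and 2228 lower. With quantile normalization repeated, Gja5 was 0.00, Panx1 0.01 and Cav3 0.02. Cav3 was 0.01 with array weights or in pairs 4 to 14 and 0.05 with the fat cell covariate. With Tagln and Cnn1 as covariates, Panx1 was 0.07, Cav1 0.04 and Cav2 -0.08, with 1535 probe sets higher and 305 past Bonferroni. With the cardiac and skeletal muscle covariate, Panx1 was 0.00, Cav1 0.04 and Cav3 0.02, with 1818 higher and 401 past Bonferroni. The cause was not tested. Without 1 pair, Gja5 ran from -0.09 to 0.04, Cav3 from -0.05 to 0.02 and Panx1 from -0.08 to 0.00. List counts moved by over 1.5 times in 9 of 50 values for related lists and 15 of 70 for marker lists, and 5 of 36 correlations with marker lists moved. At a mean level of at least 6 Panx1 had no value, and the mean over probe sets of a gene was not run, since only Cav2 had 2 and they were identical. The number of arrays limits the precision.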
